A study of Mus musculus with 8 samples.

Results

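The genes described here are 30 transcription factors that set up or maintain the identity of the endocrine cells of the pancreatic islet. They were taken by name, with no measured value in the rule but with earlier results of these data known, and all 30 were found among the 53012 genes of the count table. Whole islets of 4 βIgf1r (CTRL) and 4 βIgf1rKD (KD) mice aged 17 months were sequenced as bulk RNA, 1 library per mouse. All 8 mice were homozygous for a floxed Igf1r gene, the receptor of insulin-like growth factor 1. The βIgf1rKD mice also carried Ins1-CreERT2 as a single copy, a Cre recombinase that is active in β-cells once tamoxifen is given; per the study's methods a rat insulin promoter drives it. Tamoxifen was injected 5 times at 0.075 mg/g, and islets were taken 7 days after the last dose. The βIgf1r mice carried no Cre and were given corn oil, so Cre, tamoxifen and loss of Igf1r cannot be told apart in this design. Both sexes were used in each group and are not marked per mouse. The comparison addresses whether the RNA of the factors that define islet cells differs between these groups of mice late in life.

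Islet endocrine cells arise from precursors that transiently express Neurog3, which switches on a cascade of homeodomain, basic helix-loop-helix, zinc finger and forkhead factors. In mature islets Pdx1, Mafa and Nkx6-1 are known for maintaining insulin-producing β-cells, Irx1, Irx2 and Pou3f4 are known from glucagon-producing α-cells, and Hhex is known from somatostatin-producing δ-cells. Others, such as Neurod1, Pax6, Isl1, Insm1 and Rfx6, act in several endocrine cell types. In bulk islet RNA fewer cells of a type and less RNA per cell cannot be told apart.

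The sequences just upstream of a RefSeq transcription start of 6 of these genes are shown as examples whose values are described further on. Pdx1, Mnx1 and Nkx2-2 were picked from pairs of factors with high correlations, none of which passed adjustment over all pairs, Irx2 and Pou3f4 for their relation with Gcg, and Rfx3 for the lowest fold change. RefSeq on GRCm38.p6 gave a window of 250 bases before the transcription start for 24 of the 30 genes, and St18, Tshz1, Pax4, Irx1, Insm1 and Mafa had no entry. Bases that GENCODE M21 places in an exon were removed from the 3′ end, which leaves 112 bases for Pdx1 and 197 for Nkx2-2 and shortens Pou3f4 as well. The stretches lie at chr5:147269847-147269958 (plus strand) for Pdx1, chr5:29478471-29478720 (minus) for Mnx1, chr2:147186456-147186652 (minus) for Nkx2-2, chr13:72628570-72628819 (plus) for Irx2, chrX:110814129-110814279 (plus) for Pou3f4 and chr19:28011167-28011416 (minus) for Rfx3. The Nkx2-2 stretch lies inside the gene as GENCODE M21 places it (chr2:147177546-147194243, minus), so it precedes an internal start. All stretches are written 5′ to 3′ on the strand of the gene. Capitals mark 4 words on either strand. CCAAT is known from binding by NF-Y, the word CCGCCC from the Sp1 family, and the words CACGTG and also CAGATG from factors that bind E-boxes.
Pdx1: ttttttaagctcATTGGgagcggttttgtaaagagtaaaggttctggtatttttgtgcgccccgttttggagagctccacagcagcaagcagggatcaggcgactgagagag
Mnx1: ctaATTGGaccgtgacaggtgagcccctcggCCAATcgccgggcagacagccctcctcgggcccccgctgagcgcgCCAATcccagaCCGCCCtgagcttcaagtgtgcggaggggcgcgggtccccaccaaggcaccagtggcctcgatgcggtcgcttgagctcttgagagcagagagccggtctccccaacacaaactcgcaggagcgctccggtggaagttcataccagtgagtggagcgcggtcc
Nkx2-2: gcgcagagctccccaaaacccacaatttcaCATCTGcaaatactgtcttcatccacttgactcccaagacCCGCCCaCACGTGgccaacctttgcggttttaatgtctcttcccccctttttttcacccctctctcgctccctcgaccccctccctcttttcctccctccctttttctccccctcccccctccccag
Irx2: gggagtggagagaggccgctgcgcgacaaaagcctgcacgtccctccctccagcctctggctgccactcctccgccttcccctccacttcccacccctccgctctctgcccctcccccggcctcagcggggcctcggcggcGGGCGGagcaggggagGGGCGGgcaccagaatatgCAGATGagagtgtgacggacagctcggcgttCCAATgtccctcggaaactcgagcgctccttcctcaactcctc
Pou3f4: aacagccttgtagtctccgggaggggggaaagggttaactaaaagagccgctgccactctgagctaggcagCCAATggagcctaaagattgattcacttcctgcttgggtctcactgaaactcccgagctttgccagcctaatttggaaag
Rfx3: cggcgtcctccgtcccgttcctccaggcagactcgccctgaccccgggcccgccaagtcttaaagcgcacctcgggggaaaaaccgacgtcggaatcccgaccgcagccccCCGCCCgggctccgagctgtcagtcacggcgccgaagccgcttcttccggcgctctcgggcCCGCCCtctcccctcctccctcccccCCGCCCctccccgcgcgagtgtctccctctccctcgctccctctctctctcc
Over the full windows CCAAT occurred in 12 of the 24 genes and in 34.5% of 27025 mouse promoter windows of the same length, and CCGCCC in 12 and in 32.9%. CACGTG occurred in Pdx1 and Nkx2-2 (6.05% of all windows) and CAGATG in Prox1, Nkx2-2, Myt1l and Irx2 (14.5%). The homeodomain letters TAATTA were found in Fev and Mlxipl (4.90% of all windows), with both strands searched in each case. The windows of the 24 genes had a median GC content of 61.4% and a median of 17 CpG dinucleotides, against 52.0% and 6 over all windows.

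The libraries held 21633925 to 42391106 counts, and values are given as CPM, counts per 1000000 counts of a library after scaling between libraries. Markers of acinar cells, the enzyme-producing cells around the islets, took 2.67% to 19.3% of the counts in βIgf1r and 5.57% to 21.8% in βIgf1rKD mice, lowest in M148 and M146 of the respective groups. All 14 acinar markers tested were at higher mean levels in βIgf1rKD islets and 0 of them had an unadjusted p under 0.05, while 11 of 11 endothelial markers were at lower levels, 6 of them with an unadjusted p under 0.05. Of all genes tested 4.12% had such a p by edgeR. Macrophage and leukocyte markers were higher for 8 of 10, duct markers for 7 of 9 and stromal markers for 5 of 9, and all 5 Schwann cell markers were lower. The defining islet hormones Ins2, Gcg, Sst and Ppy were abundant in every mouse. Igf1r itself ranged from 46.8 to 60.9 CPM in βIgf1r and from 46.9 to 57.9 CPM in βIgf1rKD islets, with a log2 fold change of -0.08 (SE 0.11). The count covers the whole gene, whereas 1 floxed exon is removed, so it does not test the labels.

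Of the 30 factors 28 had enough counts to be tested. The mean was higher in βIgf1rKD islets for 12 and lower for 16 of them, with a median log2 fold change of -0.03 beside 0.01 over all 15474 genes tested. By edgeR's quasi-likelihood test 0 of the 28 had an unadjusted p under 0.05, where 4.12% of all genes did, and 0 had an adjusted p under 0.05, where 0% of all genes did. DESeq2 and limma-voom gave 1 and 0 of the 28 at an unadjusted p under 0.05, where 4.53% and 3.65% of all genes passed. After adjustment they gave 0 of the 28, with 8 and 1 genes called over the whole table. The 4 βIgf1rKD mice did not separate from the 4 βIgf1r mice for any factor, a pattern found in 2.22% of all genes. The log2 fold changes ran from -0.24 for Rfx3 to 0.37 for Mafa, and the smallest p was 0.0566, for St18 (edgeR, adjusted p = 0.987).

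**Figure D1:**
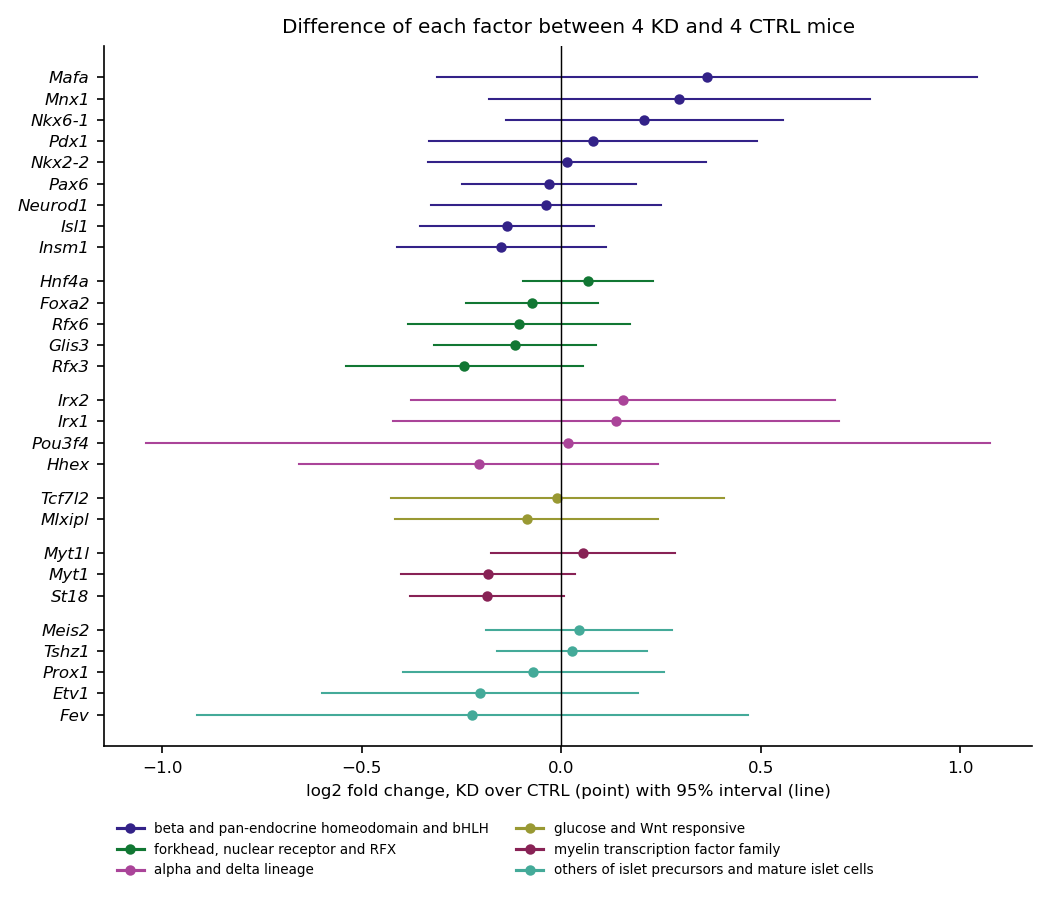
Log2 fold change of each of the 28 tested factors between 4 βIgf1rKD (KD) and 4 βIgf1r (CTRL) mice on the x axis, with points for the estimates, lines for 95% intervals and colours for the role of the gene. Every interval covers 0, and the estimates lie between -0.24 (Rfx3) and 0.37 (Mafa).

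In the fit without covariates, the 95% intervals limit how large a difference could have gone undetected. They do not allow for the uneven split of the mice by Xist that is described further on. For 26 of the 28 factors the interval lay within a fold of 2 in either direction, and for 20 within a fold of 1.5. The exceptions to the wider limit were Mafa, whose interval reached 1.04 on the log2 scale, and Pou3f4, with an interval from -1.04 to 1.07. The narrowest interval was that of Hnf4a, a nuclear receptor of hepatocytes and β-cells, from -0.10 to 0.23.

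Levels of different factors were compared as CPM per kilobase of exon, averaged over the 8 mice. The length joins the exons of all annotated transcripts, 11694 bases over 26 transcripts for Pax6 and 2158 bases over 1 for Pdx1. Genes with many transcripts can therefore come out lower, and the order depends on this length. Mafa was highest, at 203 ± 73.2 (SD, n = 8), followed by Nkx6-1 at 101 ± 18.5, Pdx1 at 55.3 ± 10.9 and Insm1 at 50.7 ± 6.07. Pdx1 and Insm1 did not differ by more than the spread between mice, and neither did Nkx2-2 (36.0 ± 5.96) and Neurod1 (34.5 ± 4.50) or Foxa2 (29.5 ± 1.83) and Mlxipl (29.2 ± 4.47). Mafa lay at the 99.2 percentile of all tested genes by this measure and Nkx6-1 at the 98.4 percentile. Glis3 and Prox1 had the same mean, 4.99, with an SD of 0.462 and 0.806. At the low end were Hhex at 0.965 ± 0.218, Tcf7l2 at 0.340 ± 0.0486 and Pou3f4 at 0.242 ± 0.124. Foxa1, a forkhead factor of the same family as Foxa2, had 1 to 4 counts per library and was not tested. Pax4, a homeodomain factor of β-cell and δ-cell precursors, had 0 counts in every library, which allows up to 0.0708 to 0.139 CPM before scaling, the value of 3 counts, for counting error only.

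**Figure D2:**
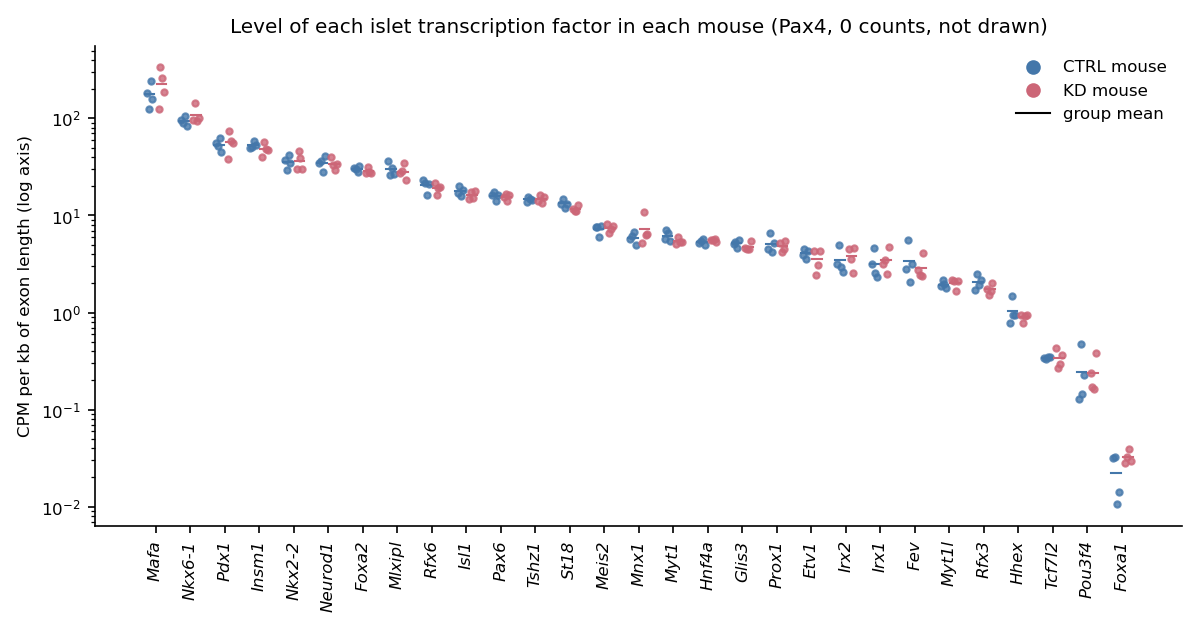
CPM per kilobase of exon (log axis) of 29 factors in each of the 4 βIgf1r (CTRL) and 4 βIgf1rKD (KD) mice, with points for mice and lines for group means, ordered by the mean over 8 mice. Levels fall from 203 for Mafa to 0.242 for Pou3f4 and to the few counts of Foxa1, and the colours overlap for every gene with 10 or more counts in each mouse.

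Among the β-cell and pan-endocrine factors, Mafa, Mnx1 and Nkx6-1 had the largest positive estimates. Mafa (chr15:75745490-75748228, minus strand), a bZIP activator of the insulin genes in mature β-cells, was at 498, 346, 665 and 431 CPM in the βIgf1r mice M148, M151, M152 and M153. In the βIgf1rKD mice M145, M146, M149 and M150 it was at 346, 921, 722 and 509.8 CPM. M146 and M149 lay above all βIgf1r mice, while M145 matched the lowest of them, so the groups overlapped over most of their range. The means were 485 ± 135 and 625 ± 250.2 CPM (SD, n = 4 each), a log2 fold change of 0.37 (SE 0.30, edgeR adjusted p = 0.987).

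Nkx6-1 (chr5:101658139-101664996, minus strand), a homeodomain repressor that keeps β-cells apart from other endocrine cells, was at 301, 284, 329 and 265 CPM in the βIgf1r and at 302, 454, 292 and 315 CPM in the βIgf1rKD mice, in the same order of mice. Here M146 alone stood above the βIgf1r mice. The log2 fold change was 0.21 (SE 0.15, edgeR adjusted p = 0.987). Mnx1, a homeodomain factor of β-cells and motor neurons, was at 12.7, 13.9, 15.4 and 11.1 CPM in the βIgf1r and at 11.8, 24.5, 14.2 and 14.7 CPM in the βIgf1rKD mice, again with M146 highest (log2 fold change 0.30, SE 0.21). Without M146 the log2 fold changes of Mafa, Nkx6-1 and Mnx1 were 0.12, 0.04 and 0.03. M146 also had the lowest acinar share of the βIgf1rKD mice, at 5.57%, and with the acinar marker score as a covariate the estimates of the same genes were 0.39, 0.28 and 0.40 with unadjusted p of 0.252, 0.0972 and 0.0898 by edgeR.

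Pdx1 (chr5:147269959-147275848, plus strand), needed for pancreas formation and for insulin transcription, had 119.8, 113, 134 and 96.4 CPM in the βIgf1r and 82.8, 160.0, 128 and 120.2 CPM in the βIgf1rKD mice. The lowest and the highest of the 8 values both belonged to βIgf1rKD mice, M145 and M146, and the log2 fold change of 0.08 (SE 0.18) turned to -0.07 without M146. Nkx2-2, a homeodomain factor of all endocrine lineages, was the gene whose estimate lay closest to 0 among the positive ones, at 0.01 (SE 0.16). Its means were 103 ± 14.5 and 104 ± 21.8 CPM (SD, n = 4 each).

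The remaining factors of this role differed by small amounts. Neurod1, a basic helix-loop-helix activator of insulin, went from 95.3 ± 14.4 to 92.8 ± 11.8 CPM (log2 fold change -0.04, SE 0.13). Of its sequence words of 31 bases 6.37% are shared with the overlapping gene Cerkl, which adds uncertainty to its counts. On the opposite strand Neurod1 shares 4.63% of its words with Gm26755, and Nkx2-2 shares 8.70% with Nkx2-2os. Whether strand was used in the quantification is not given in the sources used here. Pax6 was at 187 ± 16.4 and 183 ± 13.6 CPM, and the LIM homeodomain factor Isl1 at 70.9 ± 7.13 and 64.5 ± 6.25 CPM. Insm1, a zinc finger repressor of endocrine precursors, had the lowest estimate of the role, -0.15 (SE 0.12): 3 of the 4 βIgf1rKD mice lay below all βIgf1r mice, the lowest at 124 CPM, against 155 to 183 CPM, and M146, at 177 CPM, lay among the latter. Insm1, Nkx2-2 and Foxa2 lie within 1825048 bases of each other on chromosome 2, and their log2 fold changes were -0.15, 0.01 and -0.07.

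Of the forkhead, nuclear receptor and RFX factors, together with the zinc finger gene Glis3, 4 of 5 had lower means in βIgf1rKD islets. Rfx3, a winged-helix factor of ciliated and islet cells, was at 18.7, 27.3, 21.04 and 24.1 CPM in the βIgf1r and at 19.5, 16.7, 18.6 and 22.0 CPM in the βIgf1rKD mice. M146 and M149 lay below all βIgf1r mice, the other βIgf1rKD mice among them. The log2 fold change of -0.24 (SE 0.13) had an unadjusted p of 0.0983 by edgeR. Glis3, mutated in a form of neonatal diabetes, was at 45.9 ± 3.55 and 42.3 ± 4.23 CPM, with 3 βIgf1rKD mice below all βIgf1r mice and M150, at 48.7 CPM, among them. For Rfx6, an RFX factor required for endocrine differentiation, the estimate was -0.11 (SE 0.12), for Foxa2 -0.07 (SE 0.07) and for Hnf4a 0.07 (SE 0.07). Foxa2 was among the steadiest genes over the mice, at 71.8 ± 3.95 and 68.2 ± 4.44 CPM.

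The myelin transcription factor family comprises 3 zinc finger factors, Myt1, Myt1l and St18. St18 (chr1:6487231-6860940, plus strand) was at 85.3, 96.0, 77.6 and 85.6 CPM in the βIgf1r and at 75.3, 72.0, 71.8 and 83.5 CPM in the βIgf1rKD mice. Of the βIgf1rKD mice M145, M146 and M149 lay below all βIgf1r mice and M150 above 1 of them. The means of 86.1 ± 7.53 and 75.7 ± 5.46 CPM (SD, n = 4 each) gave a log2 fold change of -0.19 (SE 0.09), and the interval from -0.38 to 0.01 reached just past 0. Myt1 was at 44.6 ± 5.42 and 39.3 ± 2.62 CPM, with 3 of 4 βIgf1rKD mice below all βIgf1r mice (log2 fold change -0.18, SE 0.10, edgeR adjusted p = 0.987). Myt1l had the opposite sign, at 27.3 ± 2.31 and 28.3 ± 3.20 CPM. Scaled to a panel of secretory granule genes, which moved the median of all genes by 0.09 on the log2 scale, the estimates of St18 and Myt1 were -0.09 and -0.10. With Xist as a covariate they were -0.25 and -0.23, with unadjusted p of 0.0196 and 0.0550 and adjusted p of 0.657 and 0.671 by edgeR.

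The factors of α-cells and δ-cells follow. Pou3f4 had the highest coefficient of variation of the 28 tested factors in both groups, 65.3% in βIgf1r and 43.2% in βIgf1rKD mice. Irx1 (chr13:71957921-71963723, minus strand), an Iroquois homeodomain factor, was at 8.22, 12.1, 6.73 and 6.07 CPM in the βIgf1r and at 8.37, 9.14, 6.53 and 12.4 CPM in the βIgf1rKD mice. Irx2 (chr13:72628820-72634198, plus strand), 665097 bases away on the same chromosome, was at 10.4, 16.4, 9.75 and 8.58 CPM and at 14.9, 11.8, 8.44 and 15.1 CPM. In both genes M151 of the βIgf1r and M150 of the βIgf1rKD group were high and M153 and M149 low, and the groups covered the same range. The log2 fold changes were 0.14 (SE 0.25) and 0.15 (SE 0.24).

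Pou3f4 (chrX:110814280-110817207, plus strand), a POU homeodomain factor also called Brn4, had 11 to 46 counts per library. It was at 0.373, 1.38, 0.427 and 0.664 CPM in the βIgf1r and at 0.702, 0.4999, 0.479 and 1.13 CPM in the βIgf1rKD mice, with M151 and M150 again the highest of their groups. The log2 fold change was 0.02 with an SE of 0.47, and its interval, given above, reached past a fold of 2 in either direction. Hhex, a homeodomain factor of δ-cells and of liver, was at 5.23 ± 1.53 and 4.53 ± 0.405 CPM, and M151, at 7.46 CPM, was the high βIgf1r mouse. Without M151 the log2 fold change of Hhex moved from -0.21 to 0.01 and that of Pou3f4 from 0.02 to 0.57.

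The mice differed in Xist, the RNA of the inactive X chromosome, in a way that did not fall evenly on the groups. M151 of the βIgf1r group and M145, M146 and M150 of the βIgf1rKD group had 270.1 to 411 CPM of Xist and 0.421 to 2.47 CPM summed over the Y-linked genes Kdm5d, Uty, Ddx3y and Eif2s3y. The other 4 mice had 1.22 to 6.71 CPM of Xist and 94.6 to 125 CPM of these genes. High Xist with few counts of Y-linked genes is the pattern of female mice, though the labels give no sex per mouse. The split is thus 1 of 4 against 3 of 4 mice, so group and sex cannot be fully told apart. It was examined after the data had been seen. Irx1, Irx2 and Myt1l did not overlap between the Xist-high and the Xist-low mice, as 3 of the 28 factors tested, beside 4.03% of all genes.

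Irx1 was at 8.37 to 12.4 CPM in the 4 mice with high Xist and at 6.07 to 8.22 CPM in the others, with means of 10.5 ± 2.04 and 6.89 ± 0.934 CPM (SD, n = 4 each). Irx2 was at 11.8 to 16.4 against 8.44 to 10.4 CPM. Both βIgf1r and βIgf1rKD mice with high Xist lay above both βIgf1r and βIgf1rKD mice with low Xist. For Myt1l the ranges were 29.4 to 30.7 and 23.6 to 27.6 CPM. In a fit with both group and Xist the Xist term had an unadjusted p under 0.05 for 6 factors, Irx2, Irx1, Myt1l, Fev, Pou3f4 and Prox1, beside 9.08% of all genes, and an adjusted p under 0.05 for 0 of them, beside 0.0258% of all genes (edgeR, adjusted p = 0.124 for Irx2, 0.305 for Irx1 and 0.401 for Myt1l). DESeq2 and limma-voom were not run for this term. In the same fit the difference between βIgf1rKD and βIgf1r turned from 0.14 to -0.12 for Irx1, from 0.15 to -0.13 for Irx2 and from 0.02 to -0.33 for Pou3f4, with no p under 0.05. Glucagon followed with overlap, at 13857 to 38220.1 CPM of Gcg against 11938 to 17900.1 CPM.

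**Figure D3:**
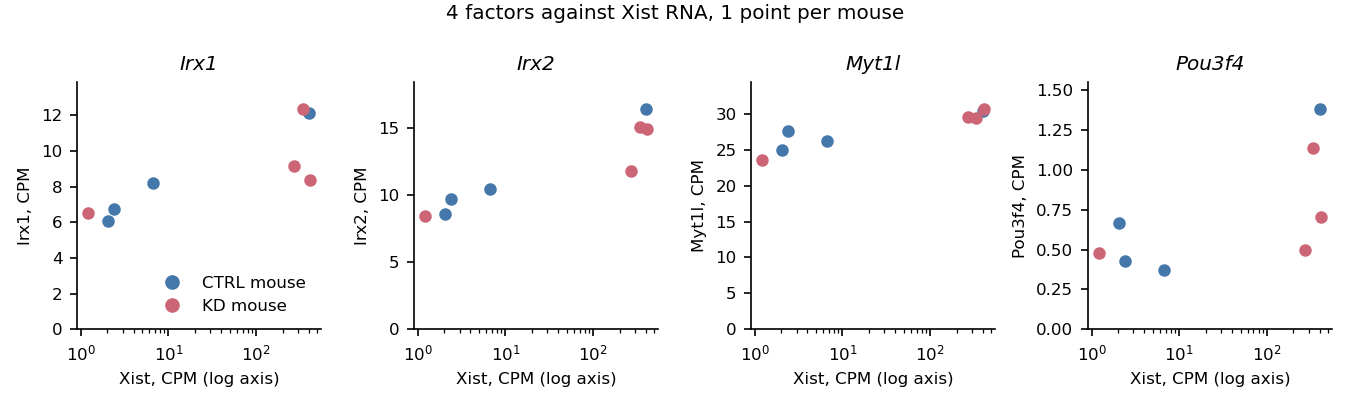
CPM of Irx1, Irx2, Myt1l and Pou3f4 on the y axes against CPM of Xist (log axis) in each of the 4 βIgf1r (CTRL) and 4 βIgf1rKD (KD) mice, 1 point per mouse. The mice right of 100 CPM of Xist, 1 CTRL and 3 KD, lie above those on the left for Irx1, Irx2 and Myt1l and overlap them for Pou3f4.

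For 8 relations between a factor and a hormone or another factor, the levels (log2 CPM) were correlated over the 8 mice, with exact two-sided permutation tests and Benjamini-Hochberg adjustment over the 8. Pou3f4 followed Gcg with Pearson's r = 0.95 (exact permutation p = 0.000843, adjusted p = 0.00675) and Spearman's rho = 0.83 (exact permutation p = 0.0154, adjusted p = 0.0410). Irx1 followed Irx2 with r = 0.90 (exact permutation p = 0.00362, adjusted p = 0.0145) and rho = 0.93 (exact permutation p = 0.00223, adjusted p = 0.0179). Without the 2 mice farthest from the median of the factor on the x axis r was 0.78 and 0.80. Irx2 with Gcg gave r = 0.84 (exact permutation p = 0.0107, adjusted p = 0.0286) and rho = 0.83 (exact permutation p = 0.0154, adjusted p = 0.0410), and r = 0.62 without the 2 farthest mice. With the group means removed r was 0.97 for Pou3f4 with Gcg, 0.90 for Irx1 with Irx2 and 0.88 for Irx2 with Gcg. With the means of the Xist-high and Xist-low mice removed, an alternative chosen after seeing the data, r was 0.92 for Pou3f4 with Gcg (exact permutation p = 0.0156 over 576 arrangements within the classes, adjusted p = 0.0764). It was 0.65 for Irx1 with Irx2 (exact permutation p = 0.125, adjusted p = 0.250) and 0.72 for Irx2 with Gcg (exact permutation p = 0.0851, adjusted p = 0.227), so these no longer passed, and 0 of the 8 relations passed after adjustment.

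The relation of Irx1 with Gcg was weaker without the 2 mice farthest from the median of Irx1, a step that also narrows the range compared. It was at r = 0.67 to 0.88 with 1 mouse left out and at 0.82 with the group means removed. Its r of 0.78 (exact permutation p = 0.0227, adjusted p = 0.0423) came with a rho of 0.64 (exact permutation p = 0.0962, adjusted p = 0.184) and fell to 0.17 without the 2 farthest mice. Mafa with Nkx6-1 likewise went from r = 0.72 (exact permutation p = 0.0264, adjusted p = 0.0423; rho = 0.62, exact permutation p = 0.115, adjusted p = 0.184) to 0.33 without them, and r was 0.90 with the Xist class means removed (exact permutation p = 0.0191, adjusted p = 0.0764). The β-cell and δ-cell factors did not pass with their hormones: Pdx1 with Ins2 gave r = 0.61 (exact permutation p = 0.104), Mafa with Ins2 r = 0.67 (exact permutation p = 0.0730) and Hhex with Sst r = 0.51 (exact permutation p = 0.195). The rho of the same relations were 0.55, 0.57 and 0.29, with exact permutation p of 0.171, 0.151 and 0.501.

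**Figure D4:**
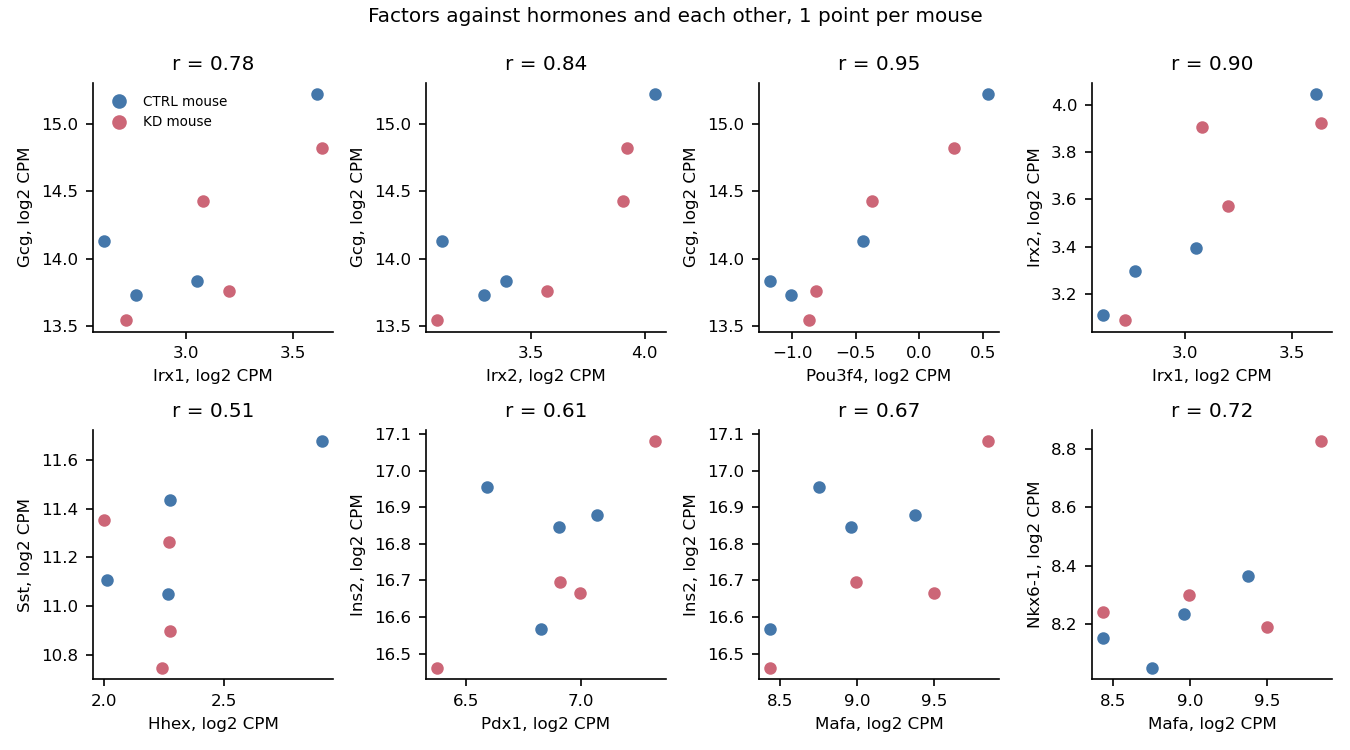
Log2 CPM of a factor (x axis) against that of a hormone or another factor (y axis) for the 8 relations, 1 point per mouse, with Pearson's r above each panel. The points of Pou3f4 with Gcg (r = 0.95) and Irx1 with Irx2 (r = 0.90) lie near a line in both groups, whereas 1 βIgf1rKD mouse, M146, sets the upper right corner of Mafa with Nkx6-1 (r = 0.72).

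Factors that respond to glucose or Wnt signals differed little. Mlxipl, the glucose-responsive factor known as ChREBP, was at 166 ± 25.6 CPM in βIgf1r and 157 ± 26.6 CPM in βIgf1rKD islets, with a log2 fold change of -0.09 (SE 0.15). Tcf7l2, a Wnt effector tied to type 2 diabetes risk, was at 2.91 to 3.08 CPM in the βIgf1r mice and at 2.36 to 3.79 CPM in the βIgf1rKD mice, so that all βIgf1r mice lay inside the range of the βIgf1rKD mice. Its means of 2.99 and 2.97 CPM gave a log2 fold change of -0.01 (SE 0.19).

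The last group holds factors of precursors and of mature islet cells. Fev, an ETS factor of endocrine precursors and serotonin neurons, was at 4.53, 9.06, 3.35 and 5.12 CPM in the βIgf1r and at 4.40, 3.93, 3.83 and 6.63 CPM in the βIgf1rKD mice, with M151 and M150 highest. Its log2 fold change was -0.22 (SE 0.31) and became 0.13 without M151. Etv1, another ETS factor, was at 54.3 ± 5.64 and 47.1 ± 12.5 CPM, and M146 and M149, at 32.6 and 40.9 CPM, lay below all other mice. Of the 31-base words of Etv1 9.31% are shared with the gene Gm5454. The homeodomain factors Meis2 and Prox1 had log2 fold changes of 0.05 (SE 0.10) and -0.07 (SE 0.15), and the zinc finger factor Tshz1 of 0.03 (SE 0.08).

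M151 had the highest of the 8 values for 11 of the 28 factors, where it had the highest value for 15.9% of all genes tested. M146 was highest for 6, near its share of 21.2% of all genes. The lowest values were spread over the mice, with 5 factors each in M152, M145, M146 and M149 and 4 in M153. Within the βIgf1rKD group M146 was highest for 10 factors and for 33.3% of all genes, M150 highest for 9 and for 17.9%, and M149 lowest for 11 and for 26.1%. The factors highest in M151 were Irx2, Pou3f4, Hhex, Fev, Prox1, Isl1, Pax6, St18, Myt1, Rfx3 and Etv1, and those highest in M146 were Mafa, Nkx6-1, Pdx1, Nkx2-2, Mnx1 and Tshz1.

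Other transcription factors of the pancreas and genes of the islet cell types were taken as further lists. Of 49 companion factors 46 were tested, 27 higher and 19 lower in βIgf1rKD islets with a median log2 fold change of 0.03. By edgeR 1 was higher at an unadjusted p under 0.05, Foxa3, at 11.5 ± 0.748 and 13.9 ± 1.14 CPM (SD, n = 4 each; log2 fold change 0.28, SE 0.10), and 1 lower, Neurog3, which starts endocrine differentiation, at 4.15 ± 0.597 and 2.95 ± 0.583 CPM (SD, n = 4 each; log2 fold change -0.49, SE 0.19). The groups overlapped in each of these genes and 0 companion factors passed after adjustment.

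Of 29 β-cell genes that these factors are known to regulate, 8 were higher and 21 lower, with a median log2 fold change of -0.06. At an unadjusted p under 0.05 by edgeR 1 passed, Ins1, beside 4.12% of all genes. It was also the 1 gene without overlap between groups, a pattern found in 2.22% of all genes. Ins1 was at 31089 to 50373.1 CPM in βIgf1r and 19119 to 28541 CPM in βIgf1rKD islets (log2 fold change -0.92, SE 0.33, edgeR adjusted p = 0.987). Ins2, its close paralog, had a log2 fold change of -0.08 (SE 0.41). Only the βIgf1rKD mice carried the Ins1-CreERT2 allele, and the part of this allele in the lower Ins1 was not tested. Of the 9 α-cell, 6 δ-cell, 4 PP-cell and 1 ε-cell genes tested 0 had an unadjusted p under 0.05, with log2 fold changes of -0.14 for Gcg, -0.25 for Sst, -0.29 for Ppy and -0.46 for Ghrl.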

How the data were processed

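RNA of islets from 8 mice, 4 βIgf1r and 4 βIgf1rKD, was analysed, each from a separate animal, with groups and mouse numbers taken from the sample labels. The authors deposited estimated counts per gene and mouse, not scaled between mice. The submitters' processing notes name fastp, kallisto and GRCm38, with versions not given in the sources used here. Because transcripts are quantified from sequence shared between isoforms and copies, counts of overlapping or duplicated genes are uncertain, and between 12.4% and 14.7% of all values in a library were not whole.

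Each estimate was first rounded to a whole number. Library totals of 21633925 to 42391106 counts make counting error small for most of the factors. Genes were filtered with filterByExpr (minimum count 10, minimum total 15), scaled by TMM and compared between all 4 and 4 mice by the quasi-likelihood test of edgeR 4.0.16 in R 4.3.3, without covariates and with Benjamini-Hochberg adjustment over 15474 genes. Standard errors were computed as the log2 fold change over the root of its F statistic, and 95% intervals from the t distribution with the moderated degrees of freedom. Log2 CPM used a prior count of 2. CPM per kilobase used the union exon length of GENCODE M21, and motifs were searched in the first window RefSeq lists per gene. P-values measure the spread between mice. The test was also run on simulated counts with known changes, drawn with means and dispersions taken from the fit to these data. The outcome of that run is not reported here.

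The 30 factors and all lists were chosen with earlier results of these data known. All 30 are named, and of the other lists the hormones, Neurog3 and those genes with an unadjusted p under 0.05 or without overlap between groups, and some genes that the rule names are not reported here. The split of the mice by Xist, the test of the Xist coefficient, the removal of Xist class means and the 378 pairs were added after the data were seen, and genes named there were chosen for their values. Of 30 listed β-cell genes 29 and of 12 α-cell genes 11 were matched by symbol. The alternatives were RLE size factors, scaling to 10 granule genes, DESeq2 1.42.0, limma-voom (limma 3.58.1), no filter, at least 10 counts in every mouse, an acinar marker score or Xist as a covariate, and each mouse left out in turn. Exact permutation tests over the 40320 pairings used numpy 2.4.6 in Python 3.11.15.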

Additional observations from a re-analysis of the deposited data

Results flagged for a closer look

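Of the 56 sets of 4 mice, 1 for each tested factor and group, 6 were flagged. In each of these the gap of 1 mouse to its nearest neighbour, relative to the range of log2 CPM, was above Dixon's 95% critical value. For independent sets chance gives about 1 in 20, or 2.8. The 56 sets share 8 libraries and are not independent, and the share of such sets over all genes is not given here. The number flagged is therefore not read as an excess. Among the βIgf1rKD mice Nkx6-1 was highest in M146, at 8.83 against 8.19 to 8.30 in the other mice, and so was Foxa2, at 6.23 against 6.04 to 6.07. The same mouse had the lowest Hhex, at 1.999 against 2.24 to 2.28. M150 had the highest Glis3 of the βIgf1rKD mice, at 5.61 against 5.32 to 5.34, and M149 the lowest Myt1l, at 4.56 against 4.88 to 4.94. M149 was also the 1 βIgf1rKD mouse with low Xist, and Myt1l in the βIgf1r mice with low Xist was at 24.9 to 27.6 CPM beside 23.6 CPM in M149. In the βIgf1r group M152 had the lowest Meis2, at 6.17 against 6.51 to 6.55. M152 had the highest acinar share of the βIgf1r mice, 19.3%, and M146 the lowest of the βIgf1rKD mice, 5.57%; the part of acinar RNA in these single values was not tested.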

How the results depend on the processing

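No paired analysis was possible because no mouse number occurs in both groups. Over 16 alternatives for each of 28 factors, 448 fits in all, 0 had an adjusted p under 0.05 (smallest 0.657), and 11 factors kept the sign of their log2 fold change in every fit. Scaling to the granule panel moved the median gene by 0.09 on the log2 scale and turned the sign for Neurod1 (0.061), Pax6 (0.055), Foxa2 (0.017), Rfx6 (0.0026), Mlxipl (0.024), Tcf7l2 (0.100) and Prox1 (0.023). The acinar score as a covariate turned Pax6 (0.051). Xist as a covariate turned Irx1 (-0.12), Irx2 (-0.13), Pou3f4 (-0.33), Mlxipl (0.021), Myt1l (-0.058) and Tshz1 (-0.031). Leaving out single mice turned the sign for 13 factors, whose log2 fold changes ranged as follows: Pdx1 -0.075 to 0.23, Nkx2-2 -0.12 to 0.097, Neurod1 -0.13 to 0.041, Pax6 -0.089 to 0.015, Irx1 -0.051 to 0.38, Hhex -0.32 to 0.014, Pou3f4 -0.34 to 0.57, Mlxipl -0.20 to 0.014, Tcf7l2 -0.14 to 0.086, Meis2 -0.037 to 0.096, Fev -0.44 to 0.13, Tshz1 -0.024 to 0.072 and Prox1 -0.16 to 0.076.

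The number of factors with an unadjusted p under 0.05, 0 as reported, was 1 with the granule panel (Nkx6-1), 1 with DESeq2, 1 with Xist as a covariate (St18) and 0 to 1 with a mouse left out. Factors without overlap between the groups, 0 as reported, numbered 1 with the granule panel. They numbered 0 to 2 with a mouse left out (2 without M146 or M150), where fewer mice are compared. The share of all genes without overlap is given here for the main fit only, 2.22%. Counts without overlap under the alternatives, here and for the lists below, therefore cannot be weighed against all genes. The share of all genes with an unadjusted p under 0.05 moved as well, from 4.12% to 7.39% with Xist as a covariate and to between 2.45% and 7.09% with a mouse left out (6.12% without M146). It was 4.56% with the granule panel, 4.53% with DESeq2 and 3.65% with limma-voom. With no filter it was 3.96%, with at least 10 counts in every mouse 3.95% and with the acinar score 2.50%. Of the 46 companion factors 2 had an unadjusted p under 0.05, 7 with Xist as a covariate and 1 to 8 with a mouse left out (highest without M146), and 0 were without overlap, 2 with no filter on low counts, 1 with at least 10 counts in every mouse and 0 to 5 with a mouse left out (highest without M152). Of the β-cell genes 1 had an unadjusted p under 0.05, 2 with limma-voom, 2 with no filter, 2 with the acinar score and 0 to 4 with a mouse left out (0 without M153 or M145, 4 without M149), and 1 an adjusted p under 0.05 by DESeq2. Between 1 and 4 β-cell genes were without overlap with a mouse left out (4 without M149). Of the non-β endocrine genes 0 had an unadjusted p under 0.05, 1 with at least 10 counts in every mouse, 3 with Xist as a covariate and 0 to 2 with a mouse left out (2 without M152), and 0 to 2 were then without overlap. The cause of these changes was not tested.

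The relation of Mafa with Nkx6-1 fell to r = 0.63 relative to the granule panel (exact permutation p = 0.0945) and ranged from 0.42 without M146 to 0.86 with a mouse left out. The range was 0.67 (without M151) to 0.88 for Irx1 with Gcg, 0.34 to 0.89 for Pdx1 with Ins2 (highest without M153), 0.46 to 0.83 for Mafa with Ins2 (highest without M153) and -0.25 (without M151) to 0.67 for Hhex with Sst. With the means of the Xist-high and Xist-low mice removed, chosen after seeing the data, r fell to 0.55 for Irx1 with Gcg, 0.72 for Irx2 with Gcg and 0.65 for Irx1 with Irx2, no longer past the threshold. Pou3f4, with 11 to 46 counts, had the fewest counts of the tested factors, and the parts of counting error and of spread between mice in its interval were not tested.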

Other observations

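Over all 378 pairs of the 28 tested factors, which were compared after the data had been seen, 238 correlations of log2 CPM over the 8 mice were positive and the median r was 0.19. An exact permutation p under 0.05 for Pearson's r was found for 65 pairs, and after Benjamini-Hochberg adjustment over the 378 pairs for 0, the smallest adjusted p being 0.0656. The pairs share the 8 libraries and their composition, so they are not independent of each other. No such count over pairs of all tested genes is given here, so the 65 pairs cannot be weighed against a background. The values that follow were picked for their size.

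The β-cell factors Pdx1, Mafa, Nkx2-2 and Mnx1 were among the pairs with high r, none of which passed the adjustment. Pdx1 with Mnx1 had r = 0.85 and rho = 0.93 (exact permutation p = 0.00627 and 0.00223, adjusted p = 0.177 and 0.141), and r = 0.89 without the 2 mice farthest from the median of Pdx1. Mafa with Nkx2-2 had r = 0.89 and rho = 0.90 (exact permutation p = 0.00454 and 0.00456, adjusted p = 0.160 and 0.173), and r = 0.77 without the 2 farthest mice. Relative to the granule panel r was 0.80 for Pdx1 with Mnx1 and 0.86 for Mafa with Nkx2-2. Nkx6-1 with Mnx1 had the highest r of all pairs, 0.94 (rho = 0.79, exact permutation p = 0.00508 and 0.0279, adjusted p = 0.160 and 0.293), but r was 0.42 without the 2 mice farthest from the median of Nkx6-1. The lowest r was that of Mafa with the ETS factor Etv1, -0.93 (rho = -0.98, exact permutation p = 0.000174 and 0.000397, adjusted p = 0.0656 and 0.141), with -0.88 without the 2 farthest mice and -0.81 relative to the granule panel. M146 had 921 CPM of Mafa and 32.6 CPM of Etv1, and M151 had 346 and 59.8 CPM.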
